A study of Mus musculus with 10 samples.

Results

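The genes described here are 10 genes of the melanosome and of pigment synthesis: Tyr, Tyrp1, Dct, Pmel, Mlana, Oca2, Slc45a2, Slc24a5, Gpr143 and Rab38. They were chosen by name, their symbols were matched to the Ensembl identifiers of the count table through GENCODE M21, and 10 of 10 were found among the 47729 genes of the table. RNA was sequenced from the retinal pigment epithelium (RPE) of 5 wild-type CD1 mice, an albino outbred strain, at P40, with 1 library from each of the 2 eyes of a mouse. In each animal 1 eye, the GFP control eye, had received an adeno-associated virus (AAV) carrying GFP. The fellow eye, the Nrf2 eye, had received that virus and another carrying the human cDNA of Nrf2, the transcription factor of the antioxidant response. Both viruses used the human Best1 promoter, which is active in the RPE, so the Nrf2 eyes held 1 virus more than the control eyes, and the effects of the added virus and of its cargo cannot be told apart. For each sample the eyecup, freed of the retina, was put in an RNA preservative, and RNA was purified from the liquid around it, a way of collecting RPE RNA. How much RNA of choroid or sclera that liquid held is not given in the sources used here.

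Melanin is made and stored in the melanosome, an organelle related to the lysosome that is found in the RPE, in the melanocytes of the choroid and in those of the skin. Fibrils of the protein Pmel build the early melanosome, the enzymes Tyr, Tyrp1 and Dct turn tyrosine into melanin on them, and membrane transporters set the pH and the ions of the organelle. In the RPE this synthesis takes place mainly before and shortly after birth. In an albino eye tyrosinase does not work and no melanin is formed, but the melanosome genes can still be transcribed.

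Several of these genes are known targets of Mitf and its relatives, factors that bind the letters CATGTG and CACGTG, and promoter sequences are shown for the letters that these genes have in common. RefSeq promoter windows of the GRCm38.p6 build, each with 250 bases before and 50 bases after the start of the gene, were at hand for 5 of the 10 genes. The hexamer CATGTG, searched on both strands, was in 5 of these 5 windows and in 14.2% of all 32851 windows of that length. The longer TCATGTG, which contains the hexamer, was in 4 of 5, all but Oca2, against 3.77% of all windows. Neither CACGTG (7.15% of all windows) nor TGACNNNGC, the core of the antioxidant response element that Nrf2 binds (12.4%), was found in any of the 5. These matches describe letters and not binding. The 30 bases around each match are given 5′ to 3′ on the strand of the gene, with CATGTG or its reverse complement CACATG in capitals.
Tyr, chr7:87493516-87493545, minus strand: gaaaaagttagtCATGTGctttgcagaaga
Tyrp1, chr4:80834155-80834184, plus strand: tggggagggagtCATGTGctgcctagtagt
Dct, chr14:118052379-118052408, minus strand: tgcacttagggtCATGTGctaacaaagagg
Dct, chr14:118052461-118052490, minus strand: gcttggctgggaCACATGagcccaataaag
Slc24a5, chr2:125068102-125068131, plus strand: aaggagactgctCACATGattcagcataag
Oca2, chr7:56239561-56239590, plus strand: ttgagcttgctaCACATGgctggaattttc
The capital letters began 21 bases before the start in Tyr, 46 in Tyrp1, 150 and 232 in Dct, 13 in Slc24a5 and 186 in Oca2. In Tyr, Tyrp1 and Dct the nearest match stood in the gene's own direction, and in Slc24a5 and Oca2 it was reversed. These distances are from the RefSeq start. The GENCODE start of Tyrp1 used below lies before it, and by that start the match of Tyrp1 is inside the gene.

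The table held between 12298404 and 27310638 counts per library, and the lowest count of any of the 10 genes in any library was 196, so none of them was near the limit of detection. Nfe2l2, the mouse gene of Nrf2, was checked first and rose from 89.4 ± 14.7 to 351 ± 57.1 CPM (SD, n = 5 each; log2 fold change 1.97, SE 0.11, adjusted p = 0.000299), although reads of the human cDNA may be counted in it. Levels are in CPM, counts scaled by the library total and its TMM factor. Fold changes are Nrf2 over control from edgeR's quasi-likelihood test, blocked by mouse, with p-values adjusted by Benjamini and Hochberg's method over the 16362 genes tested. SE is that of the 5 within-mouse log2 differences, and "called" means an adjusted p under 0.05. The RPE markers were abundant in the control eyes, with Rpe65 at 3522 ± 854 CPM, but Best1 was near the floor at 0.768 ± 0.46 CPM. Of 6 melanocyte markers, Erbb3, Kit, Sox10 and Ednrb were present in control eyes at means of 84.9, 71.8, 56.4 and 22.9 CPM, while Pax3 ran from 0 to 0.782 CPM and Mc1r reached at most 1.85 CPM over all libraries.

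RNA of all 10 genes was present in the albino eyes. Set against the length of their exons in the control eyes, Tyrp1 (374 ± 140 CPM per kb), Dct (355 ± 154) and Pmel (355 ± 280) had the highest levels, and Slc45a2 (6.85 ± 1.02) had the lowest, 54.6-fold under Tyrp1. Between them, in falling order, came Mlana (159 ± 36.5), Slc24a5 (94.2 ± 11.3), Oca2 (58.7 ± 7.88), Rab38 (29.5 ± 14.3), Gpr143 (25.3 ± 5.39) and Tyr (22.1 ± 9.3; SD, n = 5 for each). RNA of tyrosinase, the enzyme that starts melanin synthesis, was thus at a lower level per kb than that of the enzymes that act after it. The length used joins all annotated exons, 7.11 kb for Tyr and 2.83 kb for Tyrp1. In CPM alone Tyr, at 157, was also below Tyrp1 (1058) and Dct (2092), but it was above Gpr143 (50.4) and Rab38 (46.5). Among neighbours in the order per kb, only Slc24a5 and Oca2, and Tyr and Slc45a2, had ranges over the 5 control eyes that did not overlap. The ranges of the other neighbours overlapped. Eye by eye, Mlana was still above Slc24a5 and Oca2 above Rab38 in 5 of 5 control eyes, Pmel above Mlana in 4 of 5, and each of the remaining overlapping pairs kept the order in 2 or 3 of 5. Together the 10 genes took 3014 to 8322 CPM in control eyes and 3110 to 6958 CPM in Nrf2 eyes, and Tyrp1, Dct and Pmel made up 75.3% to 86.2% of that sum.

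**Figure D1:**
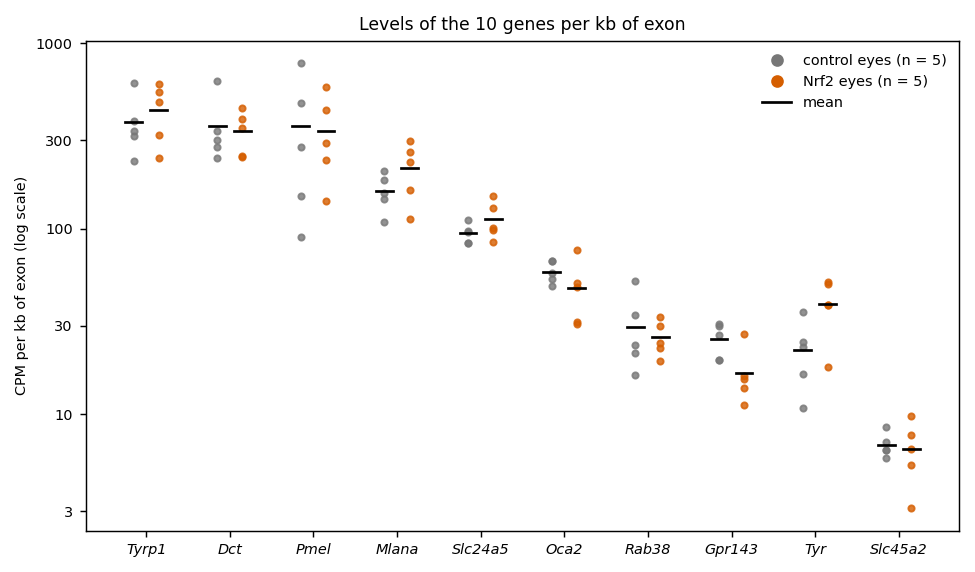
Level of the 10 genes in each library, in CPM per kb of exon on a log axis, in order of the control mean; points are single eyes (5 GFP control, 5 Nrf2) and horizontal lines are group means. Tyrp1, Dct and Pmel lie highest and Slc45a2 lowest, and in each gene the points of the 2 groups overlap.

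Between the Nrf2 and control eyes only Gpr143 was called, lower in the Nrf2 eyes, so 1 of 10 genes was called against 6.33% of all genes tested. In that direction the share of all genes was 2.73%, and 0 of 10 genes were called higher, against 3.60%. At an unadjusted p under 0.05 the count was again 1 of 10, against 19.1% of all genes. Of the 10 log2 fold changes 5 were above 0, their median was 0.07 and that of all genes tested was -0.01. These values depended on single mice: without mouse 1, 8 of the 10 were above 0 with a median of 0.38 (0.02 over all genes) and 5 had an unadjusted p under 0.05 (19.3% of all genes), and without mouse 4, 3 were above 0 with a median of -0.26. The rod marker level as a covariate gave a median of -0.37, with 3 above 0. The ranges of the control and Nrf2 eyes overlapped in 10 of 10 genes, while 6.12% of all genes tested had ranges that did not. With 5 mice that differed as much as these did, a p-value over the threshold does not show that a gene was unchanged.

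Tyr, which encodes tyrosinase (ENSMUSG00000004651, mm10 chromosome 7, 87424771 to 87493512, minus strand), had 252, 163, 117, 76.8 and 174 CPM in the control eyes of mice 1 to 5 and 128, 273, 359, 365 and 276 CPM in their Nrf2 eyes. The Nrf2 eye was the higher in 4 of 5 mice, and mouse 1 went the other way. The fold change had the largest size of the 10 but was not called (log2 fold change 0.88, SE 0.54, adjusted p = 0.338). Without mouse 1 the value was 1.35, with an adjusted p of 0.0478, and Tyr was then the 1 gene of the 10 that was called, where 5.27% of all genes were. Without mouse 4 it was 0.56 (adjusted p = 0.604), and with the rod covariate 0.36 (adjusted p = 0.753).

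Tyrp1, an oxidase of a later step (ENSMUSG00000005994, chromosome 4, 80834123 to 80851719, plus strand), had 1714, 952, 897, 654 and 1073 CPM in control eyes and 683, 908, 1550, 1701 and 1355 CPM in Nrf2 eyes. The control eye of mouse 1 and the Nrf2 eye of mouse 4 were highest, and the other eye of each of these animals was the lowest of its group. Between the groups Tyrp1 differed by less than its spread (log2 fold change 0.24, SE 0.46, adjusted p = 0.821). Dct, the dopachrome tautomerase (ENSMUSG00000022129, chromosome 14, 118012790 to 118052244, minus strand), had 3675, 1971, 1624, 1418 and 1771 CPM in control eyes and 1454, 1432, 2053, 2640 and 2293 CPM in Nrf2 eyes. The control eye of mouse 1 again stood above the other control eyes, and the group means were close, at 2092 ± 908 and 1974 ± 528 CPM (SD, n = 5 each; log2 fold change -0.03, SE 0.39, adjusted p = 0.981).

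**Figure D2:**
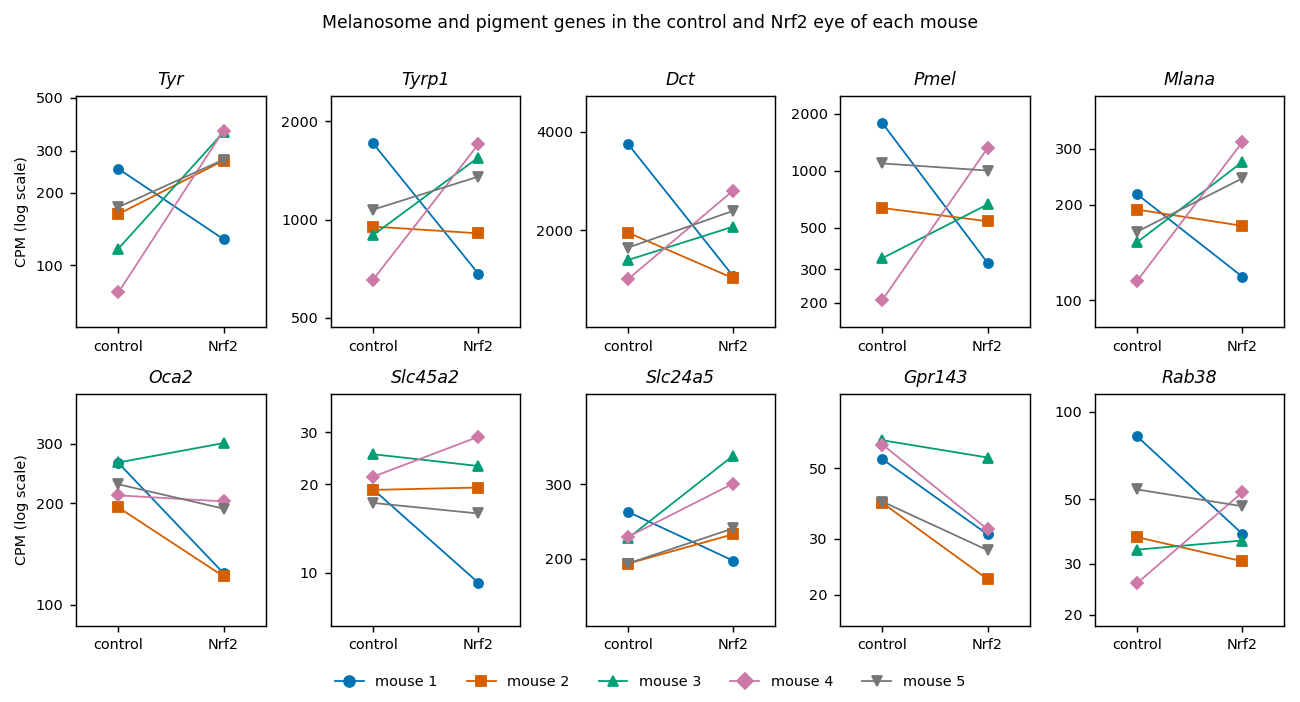
CPM of each gene in the control and the Nrf2 eye, with 1 line per mouse joining the eyes and a log axis for CPM. The lines of all 10 genes fall in mouse 1, those of all but Oca2 and Gpr143 rise in mouse 4, and the lines of Gpr143 fall in 5 of 5 mice.

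Pmel, the fibril protein (ENSMUSG00000025359, chromosome 10, 128704195 to 128720238, plus strand), varied most. It had 1788, 634, 344, 207 and 1094 CPM in control eyes and 325, 540, 664, 1321 and 1002 CPM in Nrf2 eyes. Among the control eyes alone, mouse 1 had 8.65 times the level of mouse 4, and the coefficient of variation was 78.9%. The log2 ratio of the eyes went from -2.46 in mouse 1 to 2.67 in mouse 4, around a fold change of 0.17 (SE 0.84, adjusted p = 0.943). Pmel overlaps Cdk2 and Dgka, which lie on the other strand, and the strand setting of the counting is not given in the sources used here. Neither partner was called, with log2 fold changes of -0.03 for Cdk2 and 0.18 for Dgka, and Dgka was at 275 CPM in the Nrf2 eye of mouse 1, where Pmel was at 325 CPM. Mlana, a melanosome membrane protein that binds Pmel (ENSMUSG00000024806, chromosome 19, 29697824 to 29708634, plus strand), had 216, 193, 152, 115 and 164 CPM in control eyes and 119, 172, 272, 315 and 242 CPM in Nrf2 eyes. Its control eyes were closer together than those of Pmel, with a coefficient of variation of 22.9%. The Nrf2 eye was the higher in 3 of 5 mice (log2 fold change 0.37, SE 0.40, adjusted p = 0.636).

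The transporters were steadier in the control eyes, with coefficients of variation of 13.4% for Oca2, 15% for Slc45a2 and 12% for Slc24a5. In the Nrf2 eyes the coefficients were 39% for Oca2, 38.4% for Slc45a2 and 23.4% for Slc24a5, against 21.8% to 51.1% for the other 7 genes. Oca2, a chloride channel protein of the melanosome (ENSMUSG00000030450, chromosome 7, 56239760 to 56536518, plus strand), had 264, 195, 264, 211 and 228 CPM in control eyes and 124, 122, 302, 203 and 193 CPM in Nrf2 eyes. It was lower in the Nrf2 eye in 4 of 5 mice, mostly through mice 1 and 2, and was not called (log2 fold change -0.37, SE 0.23, adjusted p = 0.357). Slc45a2, a transporter that affects melanosome pH (ENSMUSG00000022243, chromosome 15, 11000721 to 11029233, plus strand), had 19.2, 19.1, 25.3, 21.2 and 17.3 CPM in control eyes and 9.26, 19.5, 23.1, 29.0 and 15.9 CPM in Nrf2 eyes. Its largest within-mouse difference was in mouse 1, and the log2 fold change was -0.16 (SE 0.24, adjusted p = 0.785). Slc24a5, a sodium, potassium and calcium exchanger (ENSMUSG00000035183, chromosome 2, 125068124 to 125088677, plus strand), had 258, 195, 223, 225 and 195 CPM in control eyes and 198, 228, 350, 301 and 236 CPM in Nrf2 eyes. The Nrf2 eye was the higher in 4 of 5 mice, and Slc24a5 was not called (log2 fold change 0.24, SE 0.17, adjusted p = 0.49). Slc24a5 overlaps Myef2 on the other strand, which was at 26.4 ± 5.38 CPM in control eyes and was not called. Oca2 and Rab38 also overlap genes on the other strand, Gm44506 and Gm15661, which had at most 1 and 4 counts in a library. Dct overlaps 4930435M08Rik on the other strand, whose level is not given here.

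Gpr143, the melanosome receptor whose loss causes ocular albinism (ENSMUSG00000025333, chromosome X, 152781921 to 152808646, plus strand), had 53.4, 38.9, 61.2, 59.4 and 39.3 CPM in control eyes and 30.9, 22.4, 54.0, 32.1 and 27.6 CPM in Nrf2 eyes. The Nrf2 eye was the lower in 5 of 5 mice, from 50.4 ± 10.8 to 33.4 ± 12.1 CPM (SD, n = 5 each), and no other of the 10 genes kept 1 direction in 5 of 5 mice, as 20.2% of all genes tested did. Gpr143 was called (log2 fold change -0.63, SE 0.13, adjusted p = 0.0291). This call was a narrow one: it was lost without the mouse block (adjusted p = 0.232; 4.61% of all genes called) and without mouse 1, 2, 4 or 5 in turn (adjusted p from 0.0701 to 0.118; 5.27%, 3.58%, 3.66% and 4.15% of all genes), while the fold change stayed between -0.69 and -0.53 in all 15 alternatives. It was kept without mouse 3 (4.32% of all genes called) and with DESeq2 (9.44%), and lost against 1.5-fold (2.71%). Rab38, a small GTPase that brings the enzymes to the melanosome (ENSMUSG00000030559, chromosome 7, 88430273 to 88491572, plus strand), had 82.2, 37.0, 33.5, 25.7 and 54.0 CPM in control eyes and 38.0, 30.6, 36, 52.8 and 47.3 CPM in Nrf2 eyes. As with Dct and Tyrp1, the control eye of mouse 1 was the highest, and the log2 fold change was -0.09 (SE 0.35, adjusted p = 0.914).

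The mice went different ways. In mouse 1 the Nrf2 eye was the lower in 10 of 10 genes, with a median log2 ratio of -1.07, whereas in mouse 4 it was the higher in 8 of 10, with a median of 0.97. Mouse 3 resembled mouse 4, with 8 of 10 genes higher and a median of 0.50. Mouse 2 had 3 genes higher and 7 lower (median -0.20), and mouse 5 had 5 and 5 (median 0.08). In mice 2 to 5 Gpr143 had the lowest ratio of the 10, and in mouse 1 it was Pmel.

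**Figure D3:**
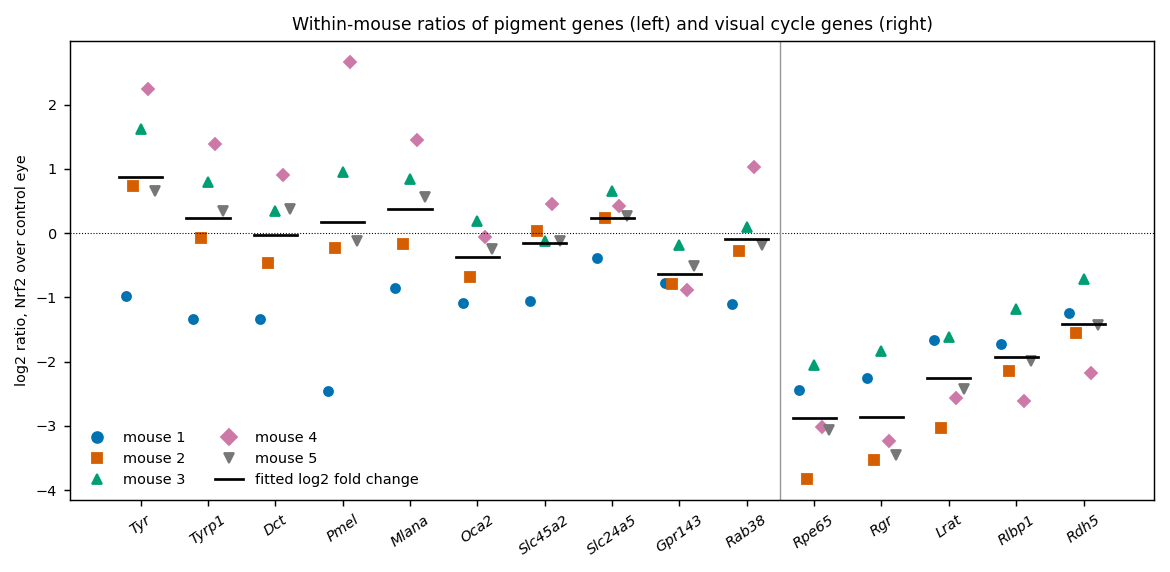
Log2 ratio of the Nrf2 to the control eye in each of the 5 mice for the 10 genes and for the visual cycle markers; each point is 1 gene in 1 mouse and horizontal lines are fitted fold changes. The pigment genes lie below 0 in mouse 1 and mostly above 0 in mice 3 and 4, and Rpe65 and the other visual cycle markers lie below 0 in 5 of 5 mice.

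Visual cycle genes of the same epithelium, which recycle the chromophore of the photoreceptors, are given beside the pigment genes, and the difference between these groups of genes was not tested. Rpe65, the isomerase, fell from 3522 ± 854 to 554 ± 362 CPM (SD, n = 5 each; log2 fold change -2.88, SE 0.30, adjusted p = 0.0017). Rgr, Lrat, Rlbp1 and Rdh5 also fell, by 2.87, 2.26, 1.93 and 1.42 on the log2 scale, with adjusted p-values of at most 0.00987. The remaining RPE marker, Best1, was near the floor and was not called (log2 fold change 0.70, adjusted p = 0.492), with a higher value in the Nrf2 eye in 4 of 5 mice. Of the 50 ratios that 10 genes in 5 mice give, 49 lay above the ratio of Rpe65 in the same mouse, and 49 above the median of the 5 visual cycle markers. The exception was Pmel in mouse 1, at -2.46 beside -2.44 for Rpe65. Over all genes tested the lowest log2 fold change was -3.65 and the median -0.01, so a gene near the median also lies above Rpe65. The share of all genes above Rpe65 was not counted, and the 49 do not set the pigment genes apart from other genes. In bulk RNA such as this, fewer RPE cells and less RNA per cell cannot be told apart.

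Markers of other cells moved between libraries, and their values are given because some followed the pigment genes. The sum of 6 fibroblast markers (Col1a1, Col1a2, Col3a1, Dcn, Lum and Pdgfra) was 666, 271, 130, 215 and 559 CPM in the control eyes of mice 1 to 5 and 140, 334, 239, 744 and 365 CPM in their Nrf2 eyes, with 0 of 6 called. The highest eyes, the control eye of mouse 1 and the Nrf2 eye of mouse 4, were also those with the most Pmel. Over the 10 libraries the mean log2 level of these markers had a Pearson's r of 0.87 with Pmel, 0.72 with Rab38, 0.70 with Tyrp1, 0.69 with Dct, 0.65 with Tyr and 0.62 with Mlana, but 0.28 with Slc45a2, 0.27 with Slc24a5, 0.08 with Oca2 and -0.32 with Gpr143. Gpr143 instead had an r of 0.88 with the RPE markers, whose sum, like Gpr143, was lower in the Nrf2 eye in 5 of 5 mice, and Oca2 had 0.60. Tyr had -0.60 and Mlana -0.38 with the RPE markers, and the others lay between -0.23 and 0.15. With the rod markers r ran from -0.58 (Rab38) to 0.05 (Slc45a2), and with the melanocyte markers from -0.08 (Dct) to 0.39 (Slc45a2). These values describe 10 libraries that hold both groups and 2 eyes of each mouse. With the fibroblast level added to the model, Tyr was called (log2 fold change 0.77, adjusted p = 0.0203) and Gpr143 was not (adjusted p = 0.0512), where 5.73% of all genes were called. The part of the fibroblast level in these results beyond that fit was not tested.

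**Figure D4:**
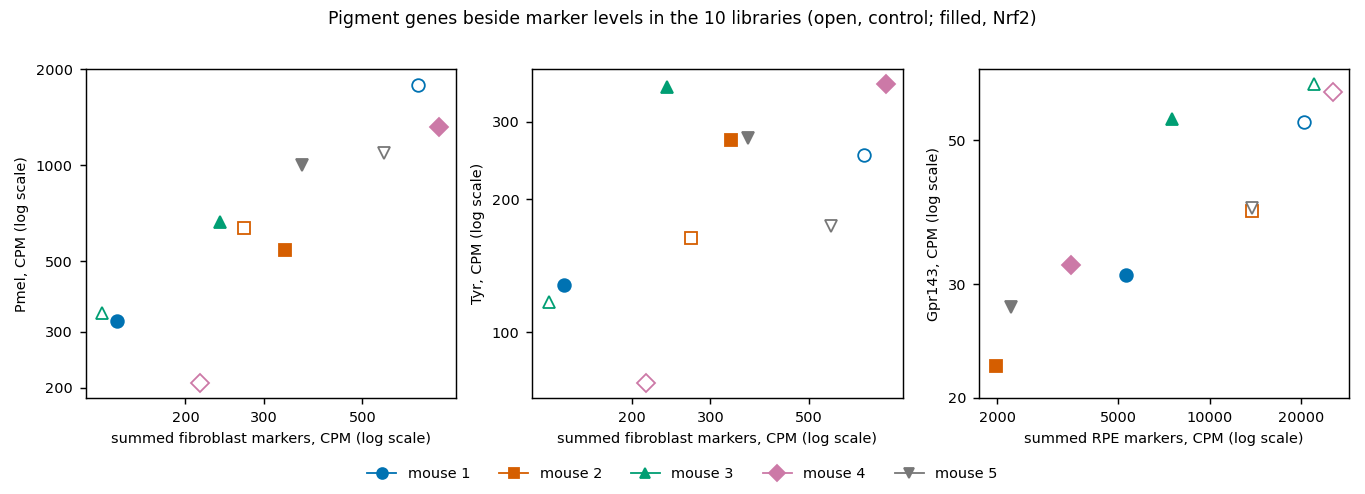
CPM of Pmel and Tyr against the summed CPM of the fibroblast markers, and CPM of Gpr143 against that of the RPE markers, on log axes, with 1 point per library (open, control; filled, Nrf2) and 1 symbol per mouse. The libraries with the most Pmel (the control eye of mouse 1 at 1788 CPM and the Nrf2 eye of mouse 4 at 1321 CPM) have the highest fibroblast sums, 666 and 744 CPM.

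Of the 6 melanocyte markers, 4 were tested and 1 was called. Sox10, a factor of neural crest cells including melanocytes, fell from 56.4 ± 17 to 17.9 ± 8.56 CPM (SD, n = 5 each; log2 fold change -1.74, SE 0.22, adjusted p = 0.00291), lower in 5 of 5 mice. Kit, Ednrb and Erbb3 were not called, with log2 fold changes of -0.07, 0.58 and 0.00. Their sum with the other markers was 172 to 393 CPM in control eyes and 152 to 267 CPM in Nrf2 eyes. With the mean log2 level of the 6 markers in the model, Gpr143 was at an adjusted p of 0.0661, and 0 of 10 genes and 4.75% of all genes were called. That mean weighs Pax3 and Mc1r, which were near the floor, like the other markers, so it can differ from the sum. The markers of rods summed to 154 to 19479 CPM in control eyes and 315 to 7477 CPM in Nrf2 eyes, highest in both eyes of mouse 2. Without mouse 2, 0 of the 10 genes and 3.58% of all genes were called. Those of microglia and macrophages, 9 of 10 of them called higher, summed to 164 to 282 CPM in control eyes and 318 to 1621 CPM in Nrf2 eyes. Most of the control sum was Csf1r, the 1 not called, at 198 ± 52.9 CPM in control and 142 ± 58.2 CPM in Nrf2 eyes (log2 fold change -0.57, adjusted p = 0.301). The sum of 5 skeletal muscle markers, with 0 of 5 called, was 78.2, 44.4, 81.1, 81.3 and 50 CPM in the control eyes of mice 1 to 5 and 4.68, 13.7, 349, 209 and 511 CPM in their Nrf2 eyes. It was thus lower in the Nrf2 eye of mice 1 and 2 and higher in that of mice 3, 4 and 5, the same directions as the median of the pigment genes. The part of rods, macrophages and muscle in the pigment gene values was not tested, other than by a rod covariate, with which 0 of 10 genes and 3.05% of all genes were called.

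In the wider machinery of the melanosome, of 35 tested genes of biogenesis, transport and other melanosome proteins, 3 were called, 1 higher and 2 lower, beside the 6.33% of all genes, and the median log2 fold change was -0.05. At an unadjusted p under 0.05 there were 11 of 35, beside 19.1% of all genes: 5 of 19 in the sorting complexes, 4 of 7 in transport and 2 of 9 among other proteins. Of 19 genes of the sorting complexes that deliver cargo to the melanosome, 1 was called. Snapin, a subunit that these complexes share with the machinery of synaptic vesicles, fell from 97.3 ± 4.89 to 71.4 ± 4.05 CPM (log2 fold change -0.45, SE 0.04, adjusted p = 0.0192), and its ranges did not overlap. The call was lost without any 1 of the 5 mice (adjusted p from 0.0522 to 0.0954), with the rod covariate (0.0864), with the melanocyte covariate (0.0502) and against 1.5-fold, at fold changes of -0.45 to -0.39. The list's most abundant genes per kb that were not called were Bloc1s1 (-0.46, adjusted p = 0.0932), which overlaps the visual cycle gene Rdh5 on the same strand, Ap3s1 (0.00) and Dtnbp1 (-0.12). Of the 19 genes 3 had a fold change above 0, and the median was -0.12.

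Of 7 genes that move melanosomes along the cytoskeleton, 1 was called. Myrip, which links Rab27a on the melanosome to a myosin in the RPE, was at 189, 141, 221, 201 and 128 CPM in control eyes and 84.2, 67.3, 130, 69.6 and 61.3 CPM in Nrf2 eyes. It was lower in 5 of 5 mice, with the Nrf2 eye of mouse 3 just above the lowest control eye (log2 fold change -1.12, SE 0.12, adjusted p = 0.00267). Rab27a itself had a fold change of -0.37 (adjusted p = 0.167), Mlph, its partner in melanocytes, of 0.21 (adjusted p = 0.743), and Rabggta, a subunit of the enzyme that adds lipid to Rab proteins, of 0.00.

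Among 9 other melanosome proteins 1 was called. Slc7a11, the cystine transporter that affects the yellow pigment of hair and is a known target of Nrf2, was at 10.9, 18.6, 15.3, 18.9 and 13 CPM in control eyes and 141, 219, 115, 248 and 169 CPM in Nrf2 eyes. The groups were far apart, and it rose in 5 of 5 mice (log2 fold change 3.52, SE 0.15, adjusted p = 6.98e-05). Bace2, a protease that processes Pmel, had 219 ± 31.8 and 334 ± 64.0 CPM (log2 fold change 0.60, SE 0.20, adjusted p = 0.0956). Gpnmb, a relative of Pmel that macrophages also make, had 0.37 (SE 0.55, adjusted p = 0.757), and Cd63, a membrane protein of lysosomes and melanosomes, had 0.07 (adjusted p = 0.893).

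**Figure D5:**
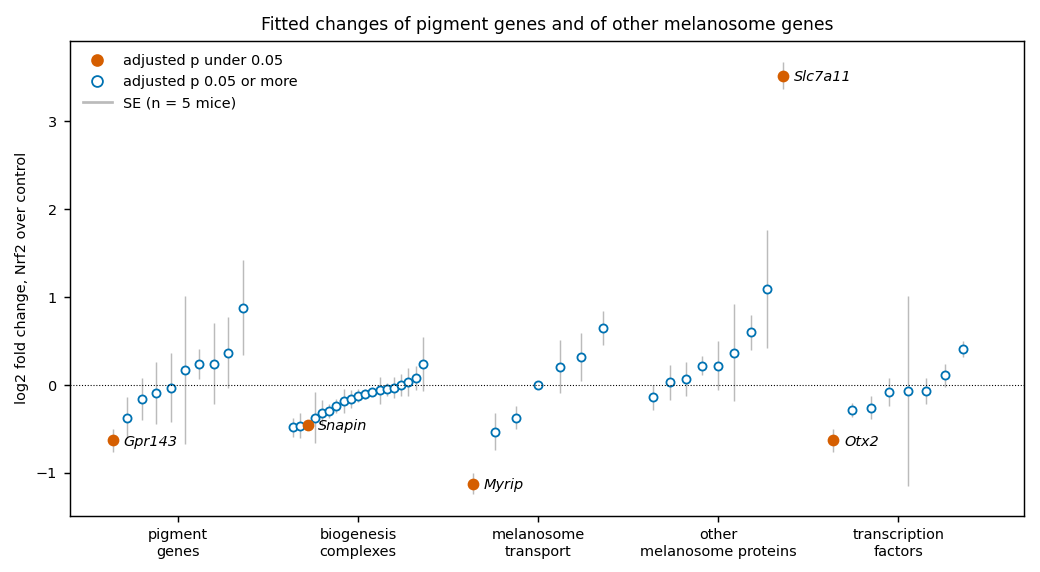
Log2 fold change of the Nrf2 over the control eyes for each of the 10 genes, the 35 genes of melanosome biogenesis, transport and other melanosome proteins, and the 8 transcription factors. Points are fold changes with SE (n = 5 mice), and filled points have an adjusted p under 0.05. Slc7a11 lies highest at 3.52, and the filled points of Myrip, Otx2, Gpr143 and Snapin lie below 0.

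Of 8 transcription factors of pigment cells, 1 was called, beside 6.33% of all genes, and 3 had an unadjusted p under 0.05, beside 19.1%. Otx2, a factor of RPE identity that acts on pigment genes, had 334, 291, 412, 459 and 251 CPM in control eyes and 226, 182, 325, 214 and 178 CPM in Nrf2 eyes, lower in 5 of 5 mice with overlapping ranges. Its log2 fold change of -0.63 (SE 0.13, adjusted p = 0.0287) was close to that of Gpr143 and as narrow, since the call was lost without any 1 of the 5 mice (adjusted p from 0.0591 to 0.124) and without the mouse block (0.137). Mitf, which was named after its values were seen, had 51.5 ± 12.2 and 43.2 ± 11.8 CPM (log2 fold change -0.26, SE 0.13, adjusted p = 0.317). Its relative Tfe3, likewise named after its values were seen, had 40.5 ± 1.05 and 54.0 ± 7.11 CPM and was higher in 5 of 5 mice with ranges that did not overlap, but was not called (log2 fold change 0.41, SE 0.09, adjusted p = 0.0678). Sox9, Pax6 and Usf1, also factors that act on pigment genes, had fold changes of -0.28, -0.08 and 0.11, with adjusted p-values of 0.185, 0.853 and 0.756.

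The 10 genes were compared with each other by Pearson's r of log2 CPM over the 10 libraries, which share mice and groups. Tyrp1 and Mlana were most alike (0.93), then Tyr and Mlana (0.90), Pmel and Rab38 (0.90), and Dct and Tyrp1 (0.88). Oca2 and Gpr143 were closest to each other (0.81), Slc24a5 was closest to Mlana (0.73), and Slc45a2 had its best match, Oca2, at only 0.59. For Tyr, Tyrp1, Dct, Pmel, Mlana and Rab38, Gpr143 was the least similar of the 10, with the lowest value for Tyr, -0.41. Outside the 10 genes, those most like their mean were Trim63 (0.974), Igsf1 (0.970), Col4a6 (0.956), the complement gene C2 (0.953) and Cped1 (0.948). None of these 5 was called, with adjusted p-values from 0.806 to 0.992.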

How the data were processed

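The libraries were made from polyA RNA amplified with a low-input kit. The authors aligned reads with STAR to mm10 with Ensembl transcripts and counted them with featureCounts, and estimated counts in parallel with Salmon (0.8.2, from the submitters' processing notes) for DESeq2. Which table was deposited, the strand setting and filters are not given in the sources used here. The deposited values are raw counts per gene, with 0 columns of other samples and 0 rows without a gene name.

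The 10 genes, the lists and the tests were chosen with earlier results of these data known. Symbols, positions and exon lengths came from GENCODE M21, which held 47310 (99.1%) of the identifiers. Counts were filtered with filterByExpr, TMM scaled and tested with edgeR 4.0.16 in R 4.3.3 with the mouse as a block. The fit was also run on simulated data, which held no differences between mice and so could not check the block. The animal number in the labels pairs the eyes of a mouse, and deviations from group means correlated at 0.19 to 0.71 within a mouse against a median of -0.08 between mice. Within-mouse ratios used a prior count of 2. Alternatives were no block, DESeq2 1.42.0, RLE scaling, other filters, a test against 1.5-fold, marker covariates (the fibroblast one was chosen after seeing the data), thinning and leaving out each mouse. A count of 0 allows 3 counts, 0.11 to 0.244 CPM, for counting error only. Named genes are the 10 genes, every called gene of the other lists and the 3 most abundant per kb not called in each, the closest genes by r, and markers.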

Additional observations from a re-analysis of the deposited data

Results flagged for a closer look

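Dixon's test was run on 82 groups of 5 eyes for a value that stands apart, and it flagged 9 of them, where chance gives about 4.1. Among the 10 pigment genes, Dct was flagged in the control eye of mouse 1, at 3675 CPM with the next eye at 1971 CPM. In the machinery around them, Dtnbp1 was highest in the control eye of mouse 4, at 96.7 CPM with the next at 83.3 CPM, and Mlph was lowest in the same eye, at 46.1 CPM with the next at 62.5 CPM.

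The other flags were sums of markers. The melanocyte sum stood out in the control eye of mouse 5 (393 CPM, next 228 CPM), and the Schwann cell sum in the Nrf2 eye of mouse 3 (505 CPM, next 278 CPM). Photoreceptor markers stood out in both eyes of mouse 2: rods at 19479 CPM in the control eye (next 3128 CPM) and 7477 CPM in the Nrf2 eye (next 484 CPM), and cones at 472 CPM (next 112 CPM) and 108 CPM (next 25.8 CPM).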

How the results depend on the processing

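With every library thinned to the smallest total, the median of the 10 genes was again 0.07. Over all genes 1036 were called, against 1823 with DESeq2, 443 with the test against 1.5-fold, 499 with the rod covariate, and 584 to 857 without 1 mouse. Without the mouse block, which the pairing of the eyes calls for, 755 genes were called, 687 of them shared with the 1036, and 0 of the 10 pigment genes, 5 of the 35 melanosome genes (Snapin, Myo5a, Myrip, Slc7a11 and Bace2) and 1 of 8 factors (Tfe3, not Otx2). The 1 pigment gene called became 0 with 1.5-fold, the rod or the melanocyte covariate, and 0 to 1 without 1 mouse. At an unadjusted p under 0.05 the pigment genes were 5 without mouse 1 (19.3% of all genes), 3 with the fibroblast covariate (18.8%), 2 without the block (15.7%), with DESeq2 (17.5%) or with no filter (11.2%), 0 with 1.5-fold (7.06%), and 1 in each other alternative (14.2% to 20.1%). The 3 melanosome genes became 7 with DESeq2, 5 with the fibroblast covariate and 2 to 4 without 1 mouse. The 1 factor became 2 with DESeq2, and 0 with 1.5-fold, the rod or melanocyte covariate or without any mouse. Myrip and Slc7a11 were called in all alternatives run.

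Signs were followed for the pigment genes, Nfe2l2, Mitf, Sox10, the RPE markers and the genes of the other lists named by call or abundance. Among these no called gene changed its sign, but 27 values of genes that were not called did. With the rod covariate Tyrp1 was at -0.17, Pmel at -0.69, Ap3s1 at 0.11, Mlph at -0.05 and Gpnmb at -0.15 on the log2 scale, and without the block Pmel was at -0.08. Leaving out 1 mouse at a time gave -0.02 to 0.64 for Tyrp1, -0.23 to 0.32 for Dct, -0.39 to 0.81 for Pmel, -0.28 to 0.09 for Slc45a2, -0.34 to 0.20 for Rab38, -0.04 to 0.14 for Ap3s1, -0.02 to 0.06 for Rabggta, -0.06 to 0.25 for Cd63 and -0.19 to 0.03 for Pax6. Ap3s1 was at 0.00 with DESeq2, RLE scaling or a mean of at least 50 counts and at 0.01 with the fibroblast covariate. Rabggta was at 0.00 with no filter, the melanocyte or the fibroblast covariate and at -0.05 after thinning. The causes were not tested.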
